A study of Homo sapiens with 16 samples.

Results

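HCT116 is an established human colorectal carcinoma cell line. It was followed here as a derivative called Mut, in which the wild-type allele of PIK3CA had been knocked out and the mutant allele was left. PIK3CA is the gene of p110-alpha, a catalytic subunit of the lipid kinase PI3K. Of the 16 arrays in the series, the 4 described here are those whose titles name HCT116 PIK3CA Mut cells, 2 of cells cultured without glutamine and 2 of cells cultured with it. Cells grew in DMEM, supplemented with dialyzed serum at 10%, and were collected for total RNA after 24 h. The same withdrawal was followed for comparison in HCT116 WT cells, in which the mutant PIK3CA allele had been knocked out, and in Mut cells of DLD1, a second colorectal carcinoma line that also keeps only its mutant allele in this derivative. DLD1 WT cells are given beside them for some gene groups. Each of these comparisons again had 2 arrays without and 2 with glutamine. The labels name 1 derivative for each genotype of a line, so genotype and other properties of that derivative cannot be told apart. The labels call the arrays of a group biological replicates and do not say whether they came from separate cultures, and p-values therefore measure only the spread between these arrays.

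Glutamine supplies nitrogen for purines, pyrimidines and asparagine, and through glutamate it feeds carbon into the tricarboxylic acid (TCA) cycle. When an amino acid runs short, uncharged tRNA activates the kinase GCN2, translation of the transcription factor ATF4 increases, and ATF4 raises genes for amino acid synthesis, amino acid uptake and tRNA charging. Proliferating colorectal cancer cells use much glutamine, and DNA replication slows when nucleotides run short.

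Values are linear intensities of Affymetrix whole-transcript arrays, with 1 probe set per gene. Medians of the 16 arrays over all probe sets lay between 3.57 and 3.70, so a gene at a few units is dim. Replicates of HCT116 Mut cells correlated at r = 0.990 without and r = 0.989 with glutamine across genes, which are not independent replicates. The first principal component of the 4 arrays held 73.5% of their variance and separated the arrays without glutamine from those with it. The cells had high EPCAM, an epithelial adhesion molecule, at 1420.0 and 1387 without glutamine and 1522 and 1464 with it, and high KRT19, a simple epithelial keratin, at 1039 and 1015 without and 1097 and 1053 with it. The intestinal mucin MUC2 was dim, at 4.21 and 4.18 without glutamine and 4.28 and 5.08 with it. Of 28 markers of fibroblasts, leukocytes and endothelium, 8 were bright enough to test. Their summed intensity was 231.9 and 240.2 without glutamine and 130.4 and 118.5 with it. The 2 called among them, both higher, were CD68 (log2 change 1.20) and ACTA2, smooth muscle actin (0.78). Leaving out CD68, a lysosomal protein that tumour cells also make, the sums were 51.4 and 72.0 without glutamine and 50.3 and 46.5 with it. The part of other cells in the results was not tested. For ACTA2 the change was not called without HCT116 Mut -Gln replicate 2 or HCT116 Mut +Gln replicate 1 or 2 (adjusted p up to 0.311).

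Glutamine withdrawal moved a large share of the tested genes in HCT116 Mut cells. A gene was called at an adjusted p under 0.05 in limma's moderated test with Benjamini-Hochberg adjustment over 15676 tested genes. By that rule 5159 genes (32.9%) were called, 2574 higher (16.4%) and 2585 lower (16.5%) without glutamine, and the median log2 change of all tested genes was -0.003. At least 2-fold changes were called for 642 genes that rose (4.10%) and 584 that fell (3.73%). The 2 arrays without glutamine both lay above or both lay below the 2 arrays with it in 9947 genes (63.5%), among them every called gene. Counts in gene groups are to be read against these shares.

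The largest rise was that of SNAI2, which encodes the transcriptional repressor Slug of epithelial-mesenchymal transition. Its intensity was 504 and 465 without glutamine, against 13.8 and 12.8 with it. The arrays were far apart, and the change was 36.4-fold (log2 change 5.18 ± 0.25 (SE), n = 2 arrays per group, limma adjusted p = 7.73e-07). In HCT116 WT cells SNAI2 stayed dim on all arrays, at 12.97 and 12.6 without and 10.8 and 8.86 with glutamine. KRT80, an epithelial keratin, was at 562 and 612 without and 47.7 and 51.4 with glutamine, an 11.8-fold rise. LAMB3, a chain of the basement membrane protein laminin-332, was at 1027 and 1055 without and 107 and 109.7 with glutamine. The replicates of each group lay close together for LAMB3, and the rise was 9.62-fold. ETS1, a transcription factor of the ETS family, was at 217 and 201 without and 19.4 and 17.8 with glutamine, and JUN, a subunit of the transcription factor AP-1, at 1177 and 1206 without and 115 and 127 with it. UPP1, which cleaves uridine into uracil and ribose 1-phosphate, was at 752 and 839 without and 71.7 and 72.9 with glutamine, a log2 change of 3.46 ± 0.23 (SE). The other 6 of the 12 largest rises lay between 4.38 and 29.8 with glutamine. They were AADAC, an esterase (log2 change 3.44), PTPRH, a receptor-type tyrosine phosphatase (3.39), BHLHE41, a repressor of the circadian clock (3.34), IL20RB, a cytokine receptor chain (3.29), KIAA0513 (3.16) and PSORS1C1 (3.14). The arrays of the 2 groups did not overlap for any of the 12, which the rule for naming them required.

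Among the largest falls were enzymes and secreted proteins. BMP4, a secreted growth factor of the TGF-beta family, was at 319 and 357 without glutamine, against 1727 and 1712 with it, a log2 change of -2.35 ± 0.09 (SE, n = 2 per group, limma adjusted p = 1.93e-07). CYP24A1, the mitochondrial hydroxylase that inactivates vitamin D, was at 82.0 and 84.6 without and 494 and 459 with glutamine. GAMT, which makes creatine, was at 33.6 and 30.0 without and 252 and 214 with glutamine. In each of these genes both arrays without glutamine lay below both arrays with it, which the rule for naming them required. SLC25A10, the mitochondrial dicarboxylate carrier, was at 60.4 and 51.2 without and 304 and 355 with glutamine (log2 change -2.56). GINS2, a subunit of the replicative helicase complex, was at 49.0 and 45.8 without and 279 and 268 with glutamine (-2.53). WNT16, a secreted Wnt ligand, was at 20.1 and 27.1 without and 168 and 159.6 with glutamine (-2.81). The remaining 6 were dim on both arrays without glutamine, between 2.60 and 8.49. They were LRRC26, an auxiliary subunit of potassium channels (-3.01), GPRC5B, an orphan receptor (-2.75), MNS1, a ciliary and flagellar protein (-2.69), TUBB4A, a beta-tubulin (-2.51), the small nucleolar RNA SNORD72 (-2.54) and RN5S156 (-2.70). RN5S156 belongs to the 5S ribosomal RNA family, whose near-identical copies a probe set may not tell apart, and its value is uncertain.

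**Figure D1:**
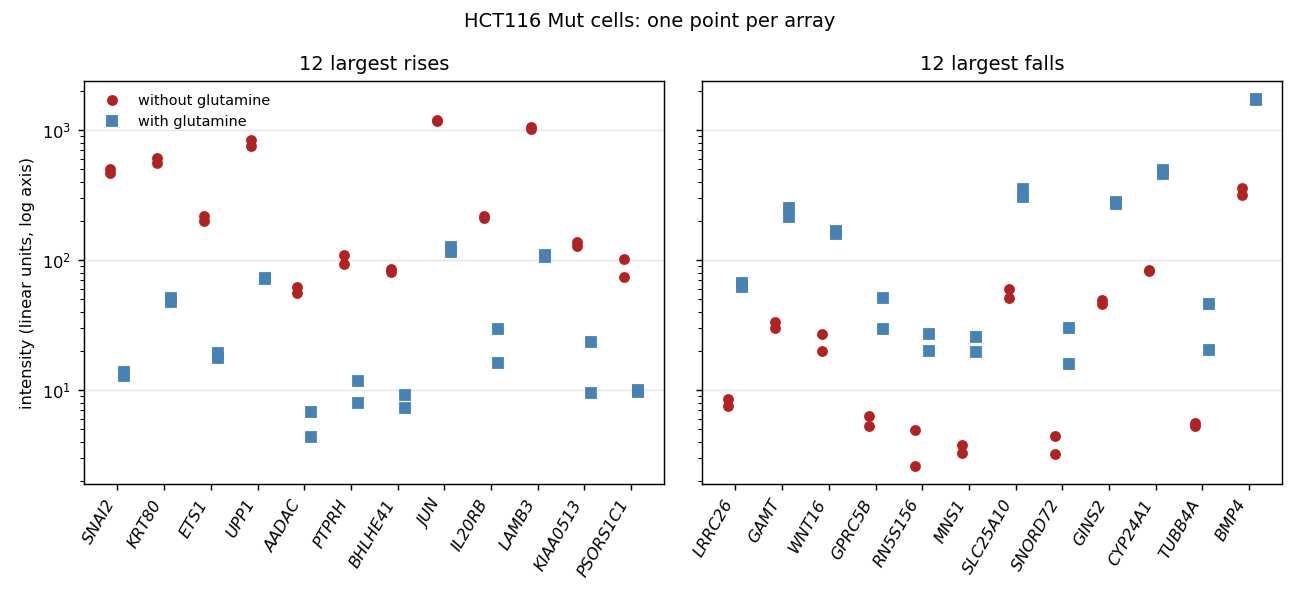
Intensity on each array (log axis) of the 12 genes with the largest rises and the 12 with the largest falls in HCT116 Mut cells, circles without glutamine and squares with glutamine. SNAI2 shows the widest gap, with 504 and 465 without glutamine against 13.8 and 12.8 with it.

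Gene groups differed widely in how many members were called. The lists hold 593 genes with a probe set of their own, of which 554 were bright enough to test. Genes of immediate early transcription, p53 targets, ERK feedback genes and YAP-TEAD targets were mostly called higher. Genes of DNA replication, nucleotide synthesis, ribosome biogenesis, one-carbon metabolism and the pentose phosphate pathway were mostly called lower. The amino acid response list had called members in both directions.

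**Figure D2:**
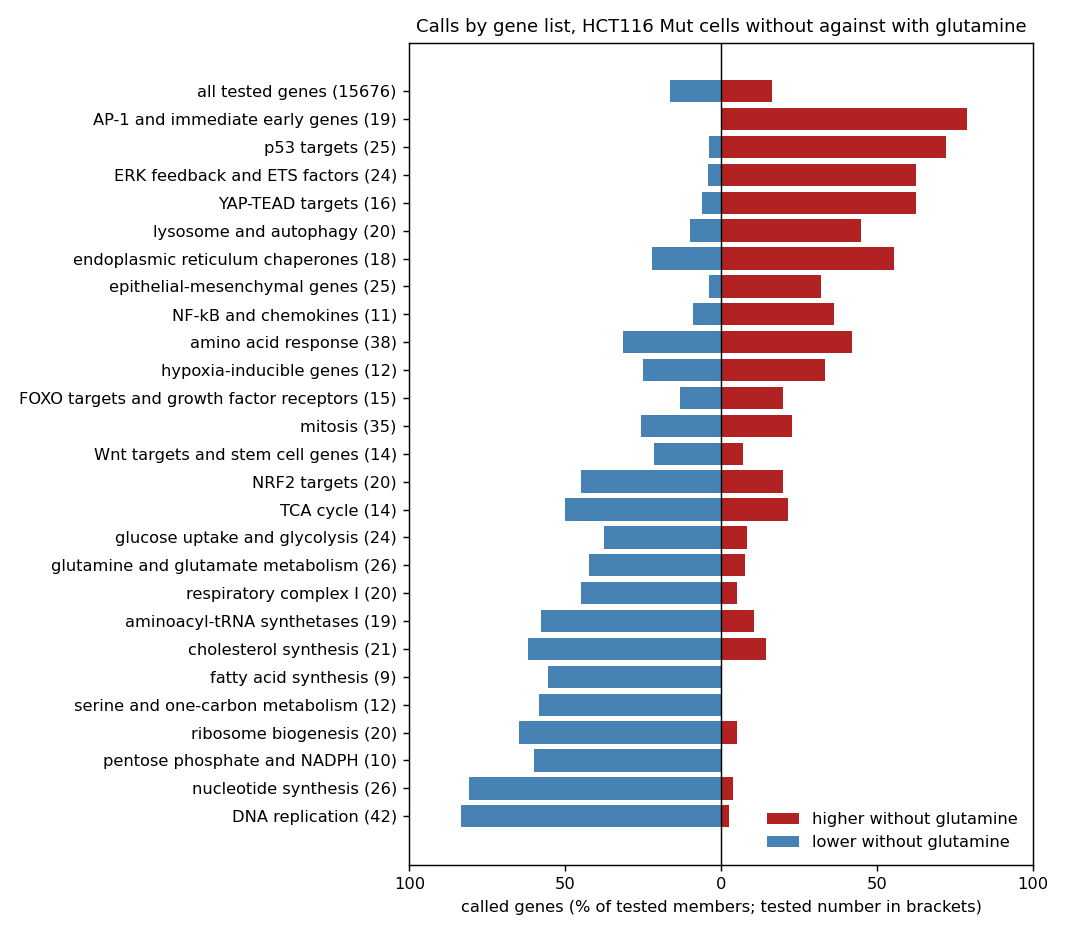
Share of tested members of the gene lists that were called higher (right) or lower (left) without against with glutamine in HCT116 Mut cells, with the number of tested members in brackets. DNA replication had 35 of 42 called lower and AP-1 and immediate early genes 15 of 19 called higher, beside 16.5% lower and 16.4% higher over all tested genes.

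The amino acid response divided by role. Of its 38 tested genes 16 were called higher and 12 lower, with a median log2 change of 0.21. Most regulators and stress signalling genes rose, and most enzymes of amino acid synthesis fell. Of 8 tested regulators 5 rose and 0 fell. DDIT3, the stress-induced transcription factor CHOP, was at 152 and 110.0 without glutamine, against 27.7 and 22.9 with it (log2 change 2.36 ± 0.33, limma adjusted p = 0.000343). ATF3, a stress-induced factor that acts downstream of ATF4, was at 72.8 and 101 without and 22.6 and 21.7 with glutamine. ATF4 itself, the central factor, rose by less, at 1212 and 1272 without and 861 and 866 with glutamine (log2 change 0.52 ± 0.10). CEBPG (0.82) and CEBPB (0.75), which pair with ATF4 on DNA, also rose, while the kinase gene EIF2AK4, which encodes GCN2, had -0.19 and was not called.

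Of 7 feedback and signalling genes 5 rose and 2 fell. PPP1R15A encodes GADD34, the phosphatase subunit that reverses the translational block of this pathway. It was at 708 and 685 without glutamine, against 84.8 and 98.9 with it, a 7.61-fold rise (log2 change 2.93 ± 0.11, limma adjusted p = 1.93e-07). SESN2, an inhibitor of mTORC1, was at 593 and 543 without and 152 and 166 with glutamine. Smaller rises were called for TRIB3, a pseudokinase that binds ATF4 (1.10), NIBAN1 (1.14) and DDIT4, which encodes the mTORC1 inhibitor REDD1 (0.44). The 2 that fell were EIF4EBP1, the translational repressor 4E-BP1, at 163 and 173 without and 472 and 542 with glutamine, and CHAC1, which degrades glutathione, at 274 and 224 without and 324 and 364 with glutamine. Among 5 secreted and surface products 3 rose and 0 fell, including the stress hormone GDF15 at 2409 and 2280.3 without and 1492 and 1519 with glutamine, and ULBP1, a ligand of the NKG2D receptor, at 269 and 309 without and 105 and 149 with it. STC2, a secreted glycoprotein, was at 555 and 576 without and 254 and 279.9 with glutamine and was not called (adjusted p = 0.0536). It was called with both groups fitted alone (adjusted p = 0.0164) and under 6 other settings, with adjusted p of at most 0.0498. For DDIT4 the change was not called without HCT116 Mut -Gln replicate 1 or HCT116 Mut +Gln replicate 1 or 2 (adjusted p up to 0.146). For CHAC1 the change was not called without HCT116 Mut -Gln replicate 2 or HCT116 Mut +Gln replicate 2 (adjusted p up to 0.116).

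Of 10 tested enzymes of amino acid synthesis 0 rose and 8 fell, with a median log2 change of -0.72. ASNS, asparagine synthetase, takes the amide nitrogen of glutamine to make asparagine and is a standard ATF4 target. It was at 185 and 183 without glutamine, against 287 and 317 with it (log2 change -0.71 ± 0.11, limma adjusted p = 0.00046). PHGDH and PSAT1, the first enzymes of serine synthesis, were lower still. PHGDH was at 191 and 195 without and 462 and 453 with glutamine (log2 change -1.24 ± 0.09). PSAT1 was at 1102 and 1088 without and 2751 and 2527 with glutamine (-1.27 ± 0.09). PSPH (-0.76), which completes serine synthesis, SHMT2 (-0.74), which turns serine into glycine in mitochondria, PCK2 (-0.88), the mitochondrial phosphoenolpyruvate carboxykinase, CTH (-0.62), which makes cysteine, and ALDH18A1 (-0.49), which starts proline synthesis from glutamate, also fell. PYCR1 (0.08) and MTHFD2 (-0.20) were not called. For CTH the change was not called without HCT116 Mut -Gln replicate 2 or HCT116 Mut +Gln replicate 1 (adjusted p up to 0.21).

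Transporters of amino acids were called in both directions, 3 of 8 higher and 2 lower. The cystine transporter SLC7A11 (log2 change 0.41), its heavy chain SLC3A2 (0.38) and the cationic amino acid transporter SLC7A1 (0.45) rose. SLC1A5, which carries glutamine, was at 587 and 552 without and 722 and 788 with glutamine and fell (-0.41), as did SLC1A4 (-0.35). Of 19 cytosolic aminoacyl-tRNA synthetases, which charge tRNAs, 11 fell and 2 rose, with a median of -0.36. AARS1 (alanine) rose, at 2837 and 3072 without and 1589 and 1663 with glutamine, and SARS1 (serine) rose by 0.47 on the log2 scale. KARS1 (lysine) was at 589 and 576 without and 1039 and 998 with glutamine (-0.81), and NARS1 (asparagine) at 1035 and 1041 without and 1643 and 1613 with it (-0.65). FARSA (-0.74) and QARS1 (-0.59), which charges tRNA with glutamine, also fell. For SLC7A11 the change was not called without HCT116 Mut -Gln replicate 1 or HCT116 Mut +Gln replicate 1 (adjusted p up to 0.0731). For SLC7A1 the change was not called without HCT116 Mut -Gln replicate 1 or 2 or HCT116 Mut +Gln replicate 1 (adjusted p up to 0.172). For SLC1A4 the change was not called without HCT116 Mut -Gln replicate 1 or 2 or HCT116 Mut +Gln replicate 1 or 2 (adjusted p up to 0.139).

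Promoter windows of 4 of these genes are shown because each holds the letters of the amino acid response element, the composite site of ATF4 and C/EBP proteins, while 2 of the genes fell and 2 rose. The windows run 5′ to 3′ in the direction of transcription, from 250 bases before to 50 bases after the RefSeq start (GRCh38.p14), and capitals mark the letters TGATGNAA on either strand. ASNS (chr7:97872359-97872658, minus strand) and CHAC1 (chr15:40953221-40953520, plus strand) fell, ATF3 (chr1:212565157-212565456, plus strand) and AARS1 (chr16:70289457-70289756, minus strand) rose.
ASNS: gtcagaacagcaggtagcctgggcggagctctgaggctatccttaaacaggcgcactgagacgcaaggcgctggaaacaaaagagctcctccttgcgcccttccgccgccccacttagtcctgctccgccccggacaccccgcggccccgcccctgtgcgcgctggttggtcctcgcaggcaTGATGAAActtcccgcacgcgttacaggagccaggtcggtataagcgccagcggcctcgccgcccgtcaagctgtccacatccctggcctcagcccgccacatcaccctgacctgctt
CHAC1: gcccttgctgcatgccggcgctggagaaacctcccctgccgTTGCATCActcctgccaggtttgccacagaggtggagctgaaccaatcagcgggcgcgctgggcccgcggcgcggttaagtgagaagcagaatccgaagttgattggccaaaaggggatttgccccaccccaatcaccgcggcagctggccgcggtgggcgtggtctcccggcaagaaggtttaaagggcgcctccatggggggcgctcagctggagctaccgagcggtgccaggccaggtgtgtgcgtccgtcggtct
ATF3: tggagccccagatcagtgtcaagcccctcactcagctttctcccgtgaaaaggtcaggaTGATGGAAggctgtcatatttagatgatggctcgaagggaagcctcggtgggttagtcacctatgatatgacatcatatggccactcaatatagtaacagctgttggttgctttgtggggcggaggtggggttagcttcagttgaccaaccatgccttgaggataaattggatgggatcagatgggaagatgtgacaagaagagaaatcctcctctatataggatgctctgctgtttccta
AARS1: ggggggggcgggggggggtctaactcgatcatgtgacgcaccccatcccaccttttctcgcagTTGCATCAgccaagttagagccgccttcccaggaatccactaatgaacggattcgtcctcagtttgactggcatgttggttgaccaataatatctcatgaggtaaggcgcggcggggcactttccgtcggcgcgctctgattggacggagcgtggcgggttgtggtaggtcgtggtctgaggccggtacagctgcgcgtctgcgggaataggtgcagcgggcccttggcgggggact

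The letters begin at position -68 from the start in ASNS, -209 in CHAC1, -191 in ATF3 and -187 in AARS1. They were found in 5 of 31 promoter windows of the amino acid response list (16.1%), in 6 of 16 windows of the synthetases (37.5%), in 227 of 11735 windows of tested genes (1.93%) and in 3.67% of all 27305 windows of that length. A match is a description of the letters only. Genes with the letters were called in both directions.

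The response of HCT116 WT cells to the same withdrawal was set against that of Mut cells by the test of the difference itself, the change in Mut cells minus the change in WT cells. That difference was called for 1488 genes (9.49%), 744 in each direction (4.75%). In the amino acid response list it was called lower in Mut for 15 genes and higher for 1, and among the synthesis enzymes lower for 8 of 10. PHGDH was at 191 and 195 in Mut cells without and 462 and 453 with glutamine, and at 359 and 349 in WT cells without and 268 and 277 with it. With glutamine the Mut cells had the higher level of this enzyme, and without it the lower, a difference in response of -1.62 ± 0.13 (SE, limma adjusted p = 0.000226). ASNS was at 277 and 240.4 in WT cells without and 187 and 179.9 with glutamine, and its difference was -1.20 ± 0.15 (adjusted p = 0.0013). CHAC1 was at 422 and 393 in WT cells without and 132 and 113 with glutamine, a rise in WT against a fall in Mut, with a difference of -2.21. PCK2 (-1.84), EIF4EBP1 (-1.69), PSAT1 (-1.44) and DDIT4 (-1.75) also differed. The 1 gene with a positive difference was PPP1R15A (0.84), which was not called with the compared groups fitted alone (adjusted p = 0.0594). Fitted alone, the 15 genes of the list became 9 and the 8 enzymes 5. The median log2 change of the synthesis enzymes was -0.72 in Mut cells and 0.33 in WT cells, where 5 rose and 1 fell (beside 10.3% higher and 10.1% lower, 20.3% in all, of the tested genes in WT cells). None of the 8 regulators differed by this test, and DDIT3 changed by 2.36 in Mut and 3.13 in WT cells. For the synthetases the difference was lower in Mut for 8 of 19 and higher for 1. That count was 5 without HCT116 Mut -Gln replicate 2, Mut +Gln replicate 1, WT -Gln replicate 2 or WT +Gln replicate 1. With the compared groups fitted alone it was 1, and the 1 higher call was lost there and without any 1 of the 8 arrays.

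**Figure D3:**
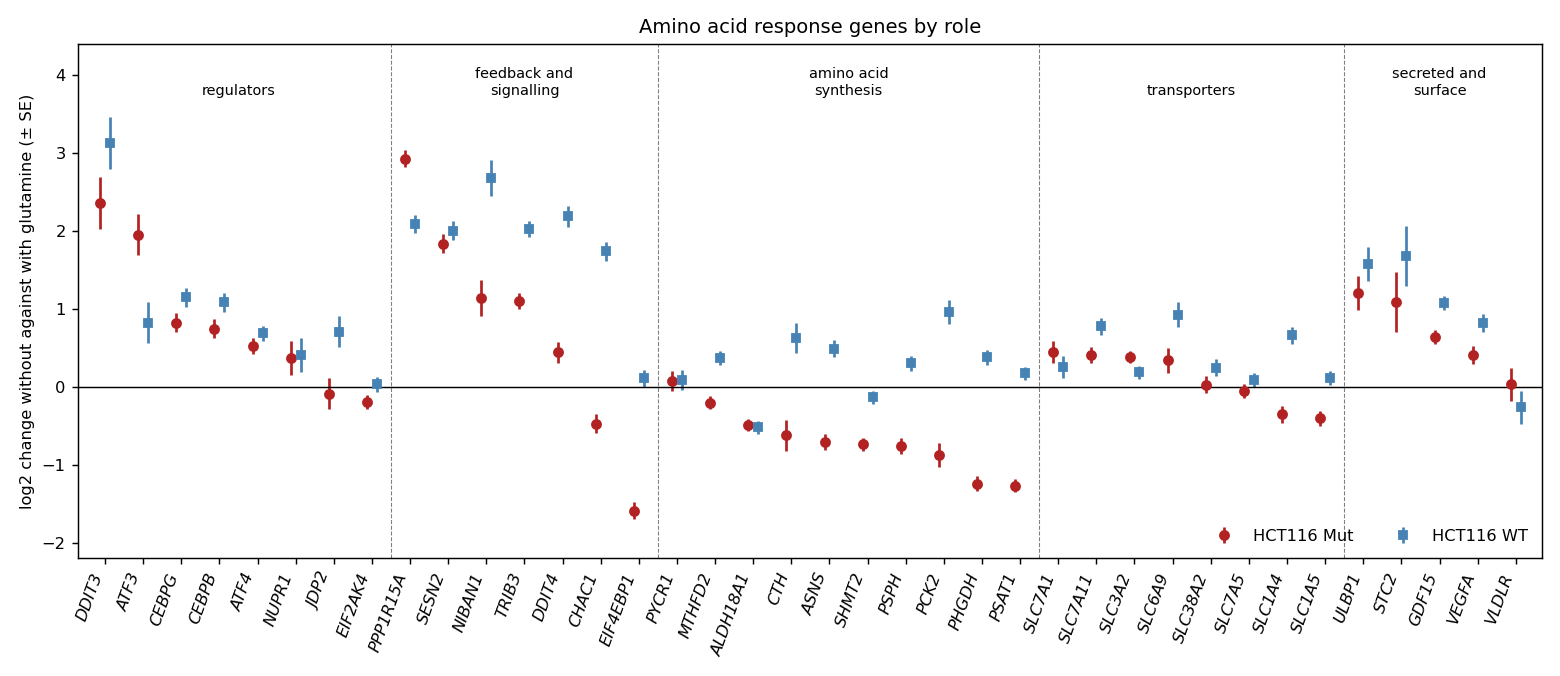
Log2 change without against with glutamine (points, with the SE as bars) of the 38 tested amino acid response genes by role, circles in HCT116 Mut cells and squares in HCT116 WT cells. Among the synthesis enzymes 8 of 10 were called lower in Mut cells, while 5 were called higher in WT cells.

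DLD1 Mut cells carry the same kind of PIK3CA genotype in another line, and there the synthesis enzymes had a median of 0.04, with 4 higher and 1 lower (beside 16.8% in each direction, 33.6% in all, of the tested genes there). The change in HCT116 Mut minus that in DLD1 Mut was called for 1919 genes (12.2%), 948 higher (6.05%) and 971 lower (6.19%). In the amino acid response list it was called lower for 16 and higher for 0. ASNS was at 296 and 294 in DLD1 Mut cells without and 139.6 and 125 with glutamine, a rise, and the difference was -1.87 (limma adjusted p = 0.00012). NIBAN1 rose in both, by 1.14 in HCT116 Mut and 3.68 in DLD1 Mut cells, with a difference of -2.54.

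Enzymes that use or make glutamine and glutamate were more often called lower than higher, 11 of 26 against 2, with a median log2 change of -0.29. GLUL, glutamine synthetase, was dim at 13.7 and 18.7 without glutamine and 25.7 and 20.5 with it, and the change of -0.52 ± 0.21 was not called (adjusted p = 0.0867). GOT1, the cytosolic aspartate aminotransferase, rose, at 2331 and 2119.6 without and 1113 and 1179 with glutamine. Its mitochondrial counterpart GOT2 fell, at 411 and 431 without and 729 and 712 with glutamine. OAT, which makes glutamate semialdehyde from ornithine, was at 128 and 120.2 without and 291 and 254 with glutamine (-1.13). CTPS1 (96.5 and 79.3 without and 179 and 170.5 with glutamine), PPAT (-0.71) and GMPS (-0.59), amidotransferases that take nitrogen from glutamine for nucleotides, also fell. In serine and one-carbon metabolism 7 of 12 fell and 0 rose. Besides the serine synthesis enzymes these included TYMS, thymidylate synthase, at 412 and 451 without and 985 and 980.2 with glutamine, and SHMT1 (-1.03), the cytosolic partner of SHMT2. For GLUL the change was called without HCT116 Mut -Gln replicate 2 (adjusted p 0.0486).

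Nucleotide synthesis and DNA replication were the groups with the highest shares of falls. Of 26 nucleotide genes 21 fell and 1, the uridine phosphorylase UPP1, rose, with a median log2 change of -0.60. HPRT1, which salvages hypoxanthine and guanine, was at 84.0 and 94.4 without and 236 and 214 with glutamine. PRPS2, which makes phosphoribosyl pyrophosphate, was at 376 and 383 without and 924 and 936 with glutamine. PAICS (-0.93) of purine synthesis and the ribonucleotide reductase subunits RRM1 (-0.60) and RRM2 (-0.67) fell by less than those 2 salvage and precursor enzymes. Of 42 replication genes 35 fell and 1 rose, with a median of -0.82. All 6 subunits of the replicative helicase, MCM2 to MCM7, fell, with MCM4 at 288 and 271 without and 995 and 970.1 with glutamine (-1.81 ± 0.09) and MCM5 at 303 and 277 without and 847 and 830.4 with it. CCNE1, the G1/S cyclin E1, was at 84.6 and 97.0 without and 339 and 362 with glutamine (-1.95 ± 0.10, limma adjusted p = 9.94e-07). PCNA, the sliding clamp, was at 685 and 697 without and 1394 and 1191 with glutamine. The gene that rose was CDKN1B (0.43), the cyclin-dependent kinase inhibitor p27. WT cells had a like direction in this list, with 38 of 42 lower and 1 higher and a median of -1.22, and DLD1 Mut cells had 36 lower and 1 higher with a median of -0.82. For CDKN1B the change was not called without HCT116 Mut -Gln replicate 2 or HCT116 Mut +Gln replicate 2 (adjusted p up to 0.12).

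The promoter window of GINS2 (chr16:85688905-85689204, minus strand, RefSeq GRCh38.p14) is shown since it had the largest fall of the replication genes and holds letters of an E2F site in capitals. The words searched on both strands were TTTCCCGC and TTTGGCGC, and the match begins at position -31.
GINS2: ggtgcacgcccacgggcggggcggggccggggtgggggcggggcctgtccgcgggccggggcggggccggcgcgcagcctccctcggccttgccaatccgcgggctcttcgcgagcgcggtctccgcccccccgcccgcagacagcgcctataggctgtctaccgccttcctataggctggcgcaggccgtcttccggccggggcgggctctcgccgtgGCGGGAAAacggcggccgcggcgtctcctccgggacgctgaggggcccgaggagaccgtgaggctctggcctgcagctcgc

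These words were in 17 of 35 windows of replication genes (48.6%), in 394 of 11735 windows of tested genes (3.36%) and in 2.31% of all windows. The genes with them included CDC25A (-0.37) and GINS3 (-0.26), which were not called. For GINS3 the change was called without HCT116 Mut -Gln replicate 2 (adjusted p 0.0251).

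Mitosis genes were called in both directions. Of 35 tested 8 rose and 9 fell, with a median log2 change of 0.05. MKI67, the proliferation marker Ki-67, was at 1661 and 1778 without glutamine, against 1349 and 1255 with it. UBE2C, an ubiquitin-conjugating enzyme of mitotic exit, was at 194 and 195 without and 125 and 131 with glutamine, and BIRC5, survivin, at 519 and 547 without and 358 and 352 with it. These rises were small, between 0.26 and 0.71 on the log2 scale, the largest in the kinetochore motor CENPE (0.71). Falls were of similar size and included DLGAP5 (-0.65), TTK (-0.52), WEE1 (-0.47) and the kinase PLK1 (-0.40). Without HCT116 Mut -Gln replicate 2 or Mut +Gln replicate 2 the count of rises was 4, and with both groups fitted alone 3 rose and 2 fell. In WT cells 27 of the 35 fell and 0 rose, with a median of -0.77. MKI67 was at 957 and 925 in WT cells without and 1639.8 and 1627 with glutamine. The difference in response was called higher in Mut cells for 23 of 35 genes and lower for 0, and for 13 and 0 with the compared groups fitted alone. NDC80 (1.27), MKI67 (1.20), CDK1 (1.17) and KIF2C (1.13) had the largest differences. Against DLD1 Mut, where 24 fell and 2 rose, 16 were higher and 0 lower, or 10 and 0 fitted alone. In DLD1 WT cells 9 of the 35 fell, 2 rose and 24 were not called, with a median of -0.06. A small median change of the mitosis list was thus not particular to HCT116 Mut cells, where 18 of the 35 were not called. The response of HCT116 Mut cells was not tested against that of DLD1 WT cells. Of the 42 replication genes 7 differed higher and 4 lower between Mut and WT, beside 4.75% of all tested genes in each direction, and 1 and 1 with the compared groups fitted alone. Without HCT116 WT +Gln replicate 1 the 7 became 4, and the 4 became 2 without Mut -Gln replicate 2, either Mut +Gln replicate, WT -Gln replicate 2 or WT +Gln replicate 2. CCNE1 fell more in Mut cells (-1.31) and MCM10, a replication initiation factor, less (1.05). For MKI67 the change was not called without HCT116 Mut -Gln replicate 2 or HCT116 Mut +Gln replicate 2 (adjusted p up to 0.0909).

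**Figure D4:**
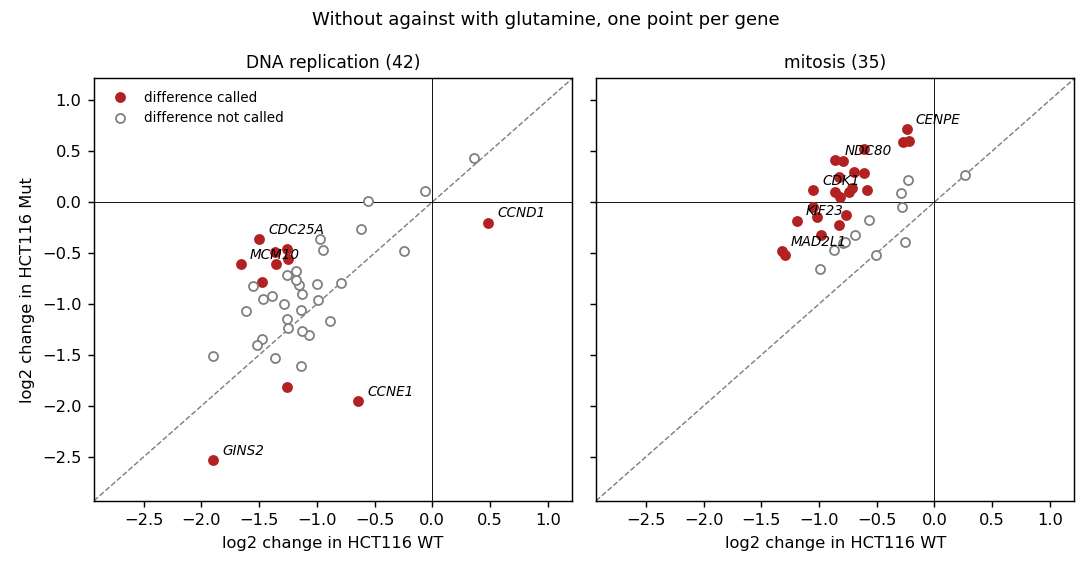
Log2 change without against with glutamine in HCT116 Mut cells (vertical) and HCT116 WT cells (horizontal) for 42 DNA replication genes and 35 mitosis genes, with the line of equal change. Filled points mark a called difference, which 23 mitosis genes had, all above the line.

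Immediate early and AP-1 genes rose together in number. Of 19 tested 15 rose and 0 fell, with a median log2 change of 0.81. JUN, described above, had the largest change (3.30 ± 0.10, limma adjusted p = 1.05e-07). FOSL1, its AP-1 partner FRA1, was at 1567 and 1629 without and 542 and 604 with glutamine (1.48). KLF6, a Kruppel-like factor, was at 976 and 1078 without and 234 and 213 with glutamine (2.20). FOS itself was dim, at 19.1 and 15.6 without and 12.4 and 15.4 with glutamine, and was not called. MYC was at 1577 and 1453 without and 943 and 1042 with glutamine (0.61). Only JUN, KLF6, FOSL1, FOSL2 and MYC differed from WT cells by the test of the difference. JUN was at 192 and 202 in WT cells without and 131 and 117 with glutamine, and its difference was 2.63 ± 0.15.

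The ERK feedback list, which holds dual-specificity phosphatases, Sprouty proteins, ETS factors and EGFR ligands, had 15 of 24 called higher and 1 lower. DUSP1, a phosphatase of MAP kinases, was at 374 and 348 without and 75.1 and 103 with glutamine (2.03). DUSP5, which acts on nuclear ERK, was at 740.2 and 971 without and 256 and 246 with glutamine (1.76). The receptor kinase EPHA2 was at 1396 and 1583 without and 411 and 437 with glutamine, and EGFR at 587 and 579 without and 216 and 237 with it. DUSP6 (0.60), the phosphatase most used as a readout of ERK, rose less, the Sproutys SPRY1 (0.45), SPRY2 (0.34) and SPRY4 (-0.20) were not called, and the ETS factor ETV4 fell (-0.50). The list was thus called unevenly among its members, strongly for DUSP1, DUSP5, DUSP8 (1.36) and DUSP10 (2.29). For SPRY1 the change was called without HCT116 Mut +Gln replicate 2 (adjusted p 0.0483). For ETV4 the change was not called without HCT116 Mut -Gln replicate 2 or HCT116 Mut +Gln replicate 2 (adjusted p up to 0.0895).

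Targets of YAP and TEAD, the transcriptional output of the Hippo pathway, had 10 of 16 called higher and 1 lower, with a median of 0.99. CCN1, a matricellular protein, was at 477 and 456 without glutamine, against 61.8 and 58.4 with it (2.96 ± 0.17, limma adjusted p = 1.51e-06). CCN2, its relative CTGF, was at 154 and 129.7 without and 28.4 and 23.6 with glutamine (2.45). The Hippo kinase LATS2 (1.31) and the YAP-binding proteins PTPN14 (1.34) and AMOTL2 (1.24) rose, while YAP1 itself had 0.01 and was not called. F3, tissue factor, fell (-0.78). In WT cells the median was 0.08, and CCN1 was at 77.8 and 81.4 without and 59.0 and 91.1 with glutamine. The difference was called higher in Mut cells for 8 of the 16 genes and lower for 1, and the difference of CCN1 was 2.84 ± 0.23 (adjusted p = 0.000226). DLD1 Mut cells had a median of 1.01, and CCN1 was at 1910.0 and 2019 there without and 279 and 308 with glutamine. Against DLD1 Mut the difference was called for 0 genes higher and for 2 lower, ANKRD1 and F3. In DLD1 WT cells 10 of the 16 rose and 0 fell, with a median of 0.79. CCN1 was at 1264 and 1286 in DLD1 WT cells without and 301 and 344 with glutamine. A rise of this list was thus not particular to Mut cells. For this list too, the response of HCT116 Mut cells was not tested against that of DLD1 WT cells.

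Of 25 tested p53 targets 18 rose and 1 fell, with a median of 0.64. CDKN1A, the cell cycle inhibitor p21, was at 99.9 and 103 without and 39.7 and 37.4 with glutamine (1.40 ± 0.15, limma adjusted p = 6.2e-05). GADD45A, a stress sensor that ATF4 can also raise, was at 2391 and 2499 without and 510.2 and 482 with glutamine. AEN, an apoptotic nuclease, was at 214 and 211 without and 69.0 and 68.9 with glutamine (1.62), and MDM2, the ubiquitin ligase of p53, at 863 and 844 without and 562 and 532 with it (0.64). The proapoptotic genes BBC3 (1.51) and PMAIP1 (1.24) rose and BAX (-0.35) was not called. The death receptor gene TNFRSF10B rose (0.90) and CCNG1 fell (-0.44). In WT cells 8 rose and 1 fell. The difference was higher in Mut cells for 9 and lower for 1, and AEN (1.81), PHLDA3 (1.49) and DDB2 (1.36) had the largest. Without HCT116 Mut -Gln replicate 1, Mut -Gln replicate 2, Mut +Gln replicate 2, WT -Gln replicate 1 or WT +Gln replicate 2 the 9 became 5, and with the compared groups fitted alone 3 were higher and 0 lower. In DLD1 Mut cells 11 of the 25 rose and 3 fell, beside 16.8% of tested genes in each direction, and the difference from them was higher in HCT116 Mut for 10 and lower for 3. For CCNG1 the change was not called without HCT116 Mut -Gln replicate 1 or HCT116 Mut +Gln replicate 1 (adjusted p up to 0.0539). For PHLDA3 the difference from WT was not called without HCT116 Mut -Gln replicate 1 or 2, HCT116 Mut +Gln replicate 1 or 2, HCT116 WT -Gln replicate 1 or HCT116 WT +Gln replicate 1 or 2 (adjusted p up to 0.0985).

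**Figure D5:**
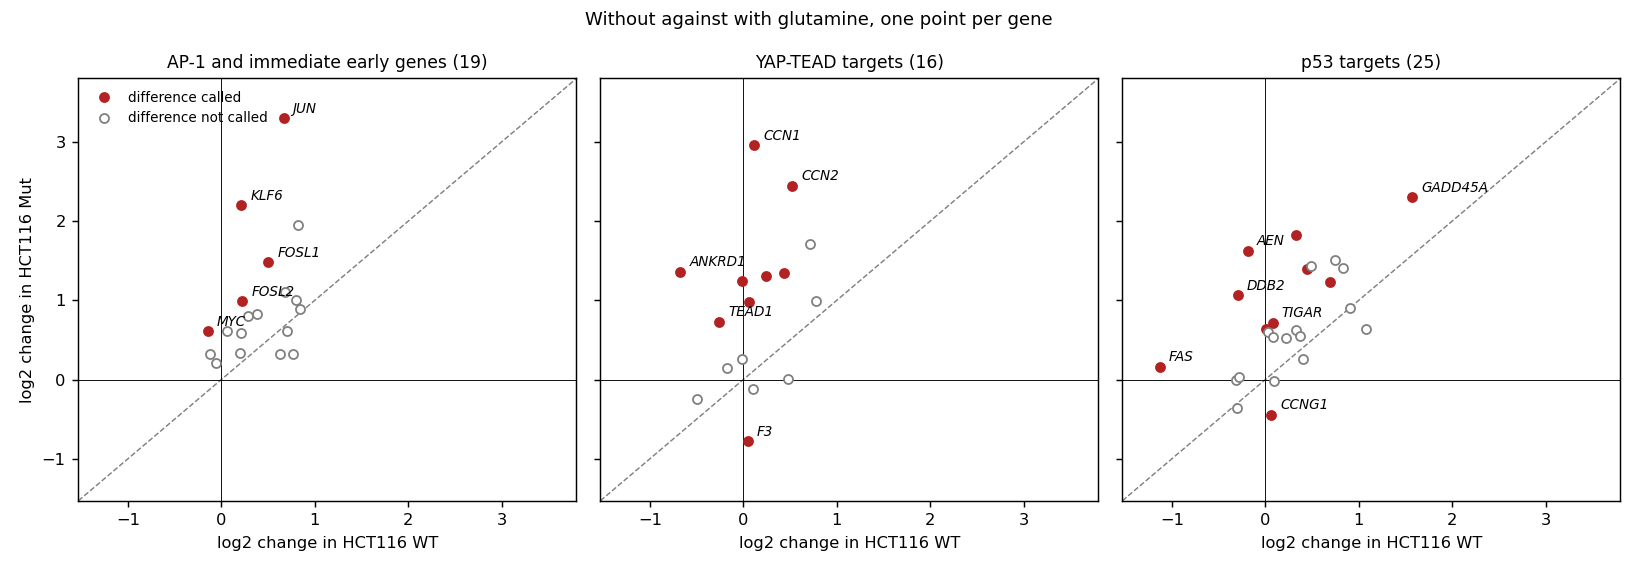
Log2 change without against with glutamine in HCT116 Mut cells (vertical) and HCT116 WT cells (horizontal) for AP-1 and immediate early genes, YAP-TEAD targets and p53 targets, with the line of equal change and the tested number in brackets. Filled points mark a called difference, 5, 9 and 10 genes in the 3 panels, with JUN and CCN1 highest above the line.

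Targets of the antioxidant factor NRF2 were more often called lower, 9 of 20 against 4 higher, with a median of -0.26. GSR, glutathione reductase, was at 388 and 389.6 without glutamine, against 1083 and 994 with it (-1.42 ± 0.08, limma adjusted p = 2.11e-06). NQO1, a quinone reductase, was at 889 and 806 without and 1546 and 1499 with glutamine (-0.85), and PRDX1, a peroxiredoxin, at 1229 and 1379 without and 2509 and 2469.5 with it (-0.93). The efflux pump ABCC3 rose (1.17), and NFE2L2, the gene of NRF2, had -0.01 and was not called. Without HCT116 Mut -Gln replicate 1 or Mut +Gln replicate 1 the 4 rises became 2. In WT cells 5 rose and 0 fell, and the difference was lower in Mut cells for 7 of 20 and higher for 0, with GSR at -1.36 ± 0.12. Of 10 genes of the pentose phosphate pathway and NADPH supply 6 fell and 0 rose. TKT, transketolase, was at 503 and 551 without and 1547 and 1577 with glutamine (-1.57), and PGD, 6-phosphogluconate dehydrogenase, at 249 and 257 without and 638 and 634 with it (-1.33). IDH2 (-1.20) and the malic enzyme ME1 (-0.62) also fell. TKT fell more in Mut than in WT cells (-1.25), as did PGD (-0.78).

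Lipid and glycolysis genes were also called lower more often than higher. Of 21 cholesterol synthesis genes 13 fell and 3 rose, with a median of -0.63. DHCR7, which makes cholesterol in the last step, was at 96.7 and 99.2 without and 361 and 308 with glutamine (-1.77). ACAT2 (-1.44), SQLE (-1.05), the squalene epoxidase, and LSS (-1.15) fell too, while INSIG2 (0.78) rose. INSIG1, a sterol-responsive brake on cholesterol synthesis, fell by less in Mut cells (-1.23) than in WT cells (-2.93), a difference of 1.70 ± 0.24. In fatty acid synthesis 5 of 9 fell and 0 rose, with FASN at 145 and 163 without and 394 and 402 with glutamine and ACLY at 454 and 424 without and 1018 and 930.0 with it, and the desaturase SCD fell as well (-1.06). In glucose uptake and glycolysis 9 of 24 fell and 2 rose, with ALDOC (-1.96), GPI (-1.55) and PGAM1 (-1.49) falling most, PFKL (-1.11) and ALDOA (-0.72) falling by less, and the arrestin family member ARRDC4 rising (1.53). For PGAM1 the change was not called without HCT116 Mut -Gln replicate 1 or HCT116 Mut +Gln replicate 1 (adjusted p up to 0.107).

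The TCA cycle list had 7 of 14 lower and 3 higher. PC, pyruvate carboxylase, was at 49.3 and 49.6 without and 20.8 and 19.6 with glutamine (1.29 ± 0.14), and OGDH, of the oxoglutarate dehydrogenase complex, at 666 and 652 without and 345 and 323 with it (0.98), and SUCLG1 (0.49), a subunit of succinyl-CoA ligase, also rose. PC was at 24.2 and 22.5 in WT cells without and 22.5 and 24.9 with glutamine, and the difference was 1.31 ± 0.20. SUCLG2 (-1.02), MDH1 (-0.75) and MDH2 (-0.72) fell. Of 20 complex I genes 9 fell and 1, NDUFS4 (1.42), rose, with NDUFB10 (-1.53), NDUFA9 (-0.84) and NDUFS3 (-0.57) among those that fell. Of 20 ribosome biogenesis genes 13 fell and 1 rose, led by BOP1 (-1.11), RRP9 (-1.11) and POLR1B (-0.71), a subunit of RNA polymerase I. WDR12 (-0.65) also fell, and RRP12 (0.51) was the gene that rose. For RRP12 the change was not called without HCT116 Mut -Gln replicate 2 or HCT116 Mut +Gln replicate 2 (adjusted p up to 0.0727).

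Genes of protein quality control and of autophagy were called higher more often than lower. Of 18 endoplasmic reticulum genes 10 rose and 4 fell. ERN1, the stress sensor IRE1-alpha, was at 165 and 173 without and 36.9 and 41.8 with glutamine (2.11), and HSPA5, the chaperone BiP, at 4400.3 and 4336 without and 2638 and 2744 with it (0.70). HYOU1 (0.85) rose, and the disulfide isomerase PDIA4 fell (-0.65). Without HCT116 Mut +Gln replicate 1 or Mut +Gln replicate 2 the 4 falls became 2. Of 20 lysosome and autophagy genes 9 rose and 2 fell. MAP1LC3B, the autophagosome protein LC3B, was at 42.3 and 33.4 without and 8.18 and 7.23 with glutamine (2.29), and its relative GABARAPL1 at 48.7 and 41.4 without and 14.3 and 13.7 with it. TFE3, a transcription factor of lysosome genes, rose (1.47), and the protease cathepsin D (CTSD) fell (-0.76).

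The rise of SNAI2 was not shared by the epithelial-mesenchymal list as a whole. Of 25 tested genes 8 rose and 1 fell, with a median of 0.16, and 5 rose without HCT116 Mut -Gln replicate 1. AXL, a receptor kinase, was at 1220.0 and 1285 without and 381 and 387 with glutamine (1.71). VIM, vimentin, was dim at 23.2 and 16.4 without and 7.04 and 6.50 with glutamine (1.53). The epithelial genes TJP1 (0.89), CRB3 (0.74), ESRP1 (0.46) and GRHL2 (0.40) were among those that rose, beside the mesenchymal repressor ZEB1 (0.66). CLDN3 fell (-0.63), CDH1, E-cadherin, was at 549 and 452 without and 456 and 421 with glutamine and was not called, and CDH2, N-cadherin, stayed dim at 2.96 and 2.58 without and 3.33 and 2.99 with it. Of 11 NF-kB and chemokine genes 4 rose and 1 fell, led by the feedback regulator TNFAIP3, at 42.9 and 45.0 without and 12.7 and 10.98 with glutamine, RELB (1.50) and NFKBIZ (0.68), while NFKBIA fell (-0.27). CXCL8, the chemokine interleukin-8, was called higher (0.83), at low intensities of 5.69 and 6.57 without and 3.48 and 3.40 with glutamine. For ESRP1 the change was not called without HCT116 Mut -Gln replicate 1 (adjusted p 0.051). For GRHL2 the change was not called without HCT116 Mut -Gln replicate 1 or 2 or HCT116 Mut +Gln replicate 2 (adjusted p up to 0.162). For ZEB1 the change was not called without HCT116 Mut -Gln replicate 1 or HCT116 Mut +Gln replicate 1 (adjusted p up to 0.0974). For CLDN3 the change was not called without HCT116 Mut -Gln replicate 2 (adjusted p 0.0818). For NFKBIA the change was not called without HCT116 Mut -Gln replicate 1 or 2 or HCT116 Mut +Gln replicate 1 or 2 (adjusted p up to 0.153).

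The largest differences in response between Mut and WT cells of HCT116 were found in genes with low levels as well as in bright ones. Without HCT116 Mut -Gln replicate 2, WT +Gln replicate 1, WT +Gln replicate 2, WT -Gln replicate 1 or WT -Gln replicate 2 the 1488 calls became 842, 912, 926, 961 and 977. Higher in Mut was first SNAI2, with 4.80 ± 0.36 (SE, limma adjusted p = 0.00017). LIPG, endothelial lipase, was at 93.3 and 89.3 in Mut cells without and 28.8 and 26.3 with glutamine, and at 20.0 and 10.5 in WT cells without and 60.2 and 50.1 with it, so that it rose in Mut and fell in WT (3.65). AADAC (3.11) and CCN1 (2.84) rose in Mut cells and were not called in WT. The other 4 were LINC00707 (3.34), ZNF530 (3.31), ZNF804A (2.98) and PRKG1-AS1 (2.79), which all lay at 37.2 or lower on these 8 arrays. LINC00707 lay at 4.71 or lower on the WT arrays, so its difference mostly restates the rise in Mut cells. PRKG1-AS1 is an antisense transcript. Lower in Mut was first WNT16 (-2.53), at 375 and 339 in WT cells without and 476 and 392 with glutamine. BMP4 was at 1907 and 2109 in WT cells without and 2361 and 2408 with glutamine, where it was not called, and the difference was -2.10 ± 0.12 (adjusted p = 4.86e-05). FAM89B was at 115 and 111 in Mut cells without and 265 and 286 with glutamine, against 489.6 and 526 in WT cells without and 279 and 283 with it, opposite directions (-2.14). SLC1A1, a glutamate and cysteine transporter, was at 29.0 and 20.4 in Mut cells without and 69.6 and 73.3 with glutamine, against 157 and 148 in WT cells without and 104 and 106 with it (-2.09). CHAC1 was given above, and OLFM2 (-2.45), YPEL3 (-2.21) and the dopamine receptor DRD1 (-2.12) lay at 52.0 or lower on these 8 arrays. DRD1 lay between 2.62 and 4.88 on the Mut arrays, near the array medians, and rose in WT cells (1.30). For PRKG1-AS1 the difference from WT was not called without HCT116 Mut -Gln replicate 2, HCT116 Mut +Gln replicate 1 or 2, HCT116 WT -Gln replicate 1 or HCT116 WT +Gln replicate 1 or 2 (adjusted p up to 0.108). For OLFM2 the difference from WT was not called without HCT116 Mut -Gln replicate 1 or 2, HCT116 Mut +Gln replicate 1, HCT116 WT -Gln replicate 1 or 2 or HCT116 WT +Gln replicate 2 (adjusted p up to 0.104).

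Most genes called in both genotypes of HCT116 had the same direction. Both rose in 1008 genes, 39.2% of the rises in Mut and 62.6% of those in WT cells, and both fell in 1022 genes, 39.5% of the falls in Mut and 64.8% of those in WT cells. Opposite directions were called for 45 genes that rose in Mut and fell in WT and 53 that fell in Mut and rose in WT. These comparisons share no arrays, but they share 1 estimate of the spread per gene.

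Against DLD1 Mut cells the largest differences included genes that were dim on all 4 arrays of HCT116 Mut cells. Without DLD1 Mut -Gln replicate 1, DLD1 Mut -Gln replicate 2, DLD1 Mut +Gln replicate 1 or DLD1 Mut +Gln replicate 2 the 1919 calls became 1169, 1244, 1222 and 1196. SLAMF6, an immune cell receptor, was at 2.40 and 2.40 in HCT116 Mut cells without and 2.24 and 2.73 with glutamine, and at 2.60 and 6.39 in DLD1 Mut cells without and 78.2 and 87.0 with it (4.29). RASSF10 (3.61) was at 2.70 and 2.33 in HCT116 Mut cells without and 1.97 and 1.88 with glutamine. Both genes entered the test through their level in DLD1 cells, so these differences restate the change in DLD1 Mut and say nothing of the response of HCT116 Mut cells. H1-5 (3.46), a linker histone with close relatives, and the cytokine IL33 (3.16) were not called in HCT116 Mut, and neither, on the lower side, were SLC16A4 (-3.26), CMKLR2 (-3.04) and CYP1A1 (-3.09). H1-5, IL33, SLC16A4 and CMKLR2 lay between 2.91 and 8.56 on the HCT116 Mut arrays, so their differences mostly restate the change in DLD1 Mut. CYP1A1 lay between 11.6 and 18.6 there. Among those that rose in HCT116 Mut were SNAI2 (4.23), the small GTPase GEM (4.09), SLFN5 (3.27) and TFPI (3.14), an inhibitor of coagulation. SLFN5 was at 939 and 925 in HCT116 Mut cells without and 122 and 166 with glutamine, and at 4.998 and 4.18 in DLD1 Mut cells without and 7.18 and 6.26 with it. Its change was 2.71 in Mut and 2.99 in WT cells of HCT116. Lower in HCT116 Mut than in DLD1 Mut were WNT16 (-3.83), MNS1 (-3.31), GPRC5B (-3.10), RN5S156 (-3.04) and TUBB4A (-2.90). MNS1, GPRC5B, RN5S156 and TUBB4A lay at 6.14 or lower on the DLD1 Mut arrays, so their differences mostly restate the fall in HCT116 Mut cells. WNT16 was at 14.3 and 18.3 in DLD1 Mut cells without and 6.81 and 9.27 with glutamine. Of the rises in HCT116 Mut cells 1409 (54.7%) were also called in DLD1 Mut cells, 53.5% of the rises there, and of the falls 1481 (57.3%), 56.3% of the falls there. For IL33 the difference from DLD1 was not called without HCT116 Mut -Gln replicate 1 or 2, HCT116 Mut +Gln replicate 1, DLD1 Mut -Gln replicate 1 or DLD1 Mut +Gln replicate 1 or 2 (adjusted p up to 0.0678). For RN5S156 the difference from DLD1 was not called without HCT116 Mut -Gln replicate 2, HCT116 Mut +Gln replicate 2, DLD1 Mut -Gln replicate 1 or DLD1 Mut +Gln replicate 2 (adjusted p up to 0.0598). For TUBB4A the difference from DLD1 was not called without HCT116 Mut +Gln replicate 1, DLD1 Mut -Gln replicate 2 or DLD1 Mut +Gln replicate 2 (adjusted p up to 0.0585).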

How the data were processed

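Total RNA of 16 samples was measured on Affymetrix whole-transcript arrays, per the labels. The deposited values are linear intensities per probe set. Neither labels nor headers name their background correction or normalization, and array medians between 3.57 and 3.70 show that the arrays are on a common scale. Of 53617 probe sets, 23871 had 1 gene symbol in the platform annotation, 1842 had several and 27904 had none. The brightest probe set was kept for each of 22395 genes, and 90 symbols were updated. Values were taken as log2 with no pseudocount, and the 70% of genes with the highest mean level, 15676, were tested.

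One limma 3.58.1 model (R 4.3.3) of 8 group means was fitted to all 16 arrays (8 residual degrees of freedom), with empirical Bayes moderation and Benjamini-Hochberg adjustment over all tested genes. The main contrasts were the change in HCT116 Mut cells, and that change minus the change in HCT116 WT or in DLD1 Mut cells. The changes in HCT116 WT, DLD1 Mut and DLD1 WT cells came from the same fit. Their counts were not repeated under the alternatives below. The fit was tested on simulated data with known changes. With 2 arrays a group, the number of arrays limits the precision.

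The genes named were the 12 largest rises and falls with arrays that do not overlap, the 8 largest differences in each direction, members of the gene lists, and always ASNS, GLUL, CXCL8 and SNAI2. The members and lists were chosen with earlier results of these data known. Deviations of same-numbered arrays correlated between -0.036 and 0.033, so no pairing by number was visible in these values. That cannot show whether same-numbered arrays were cultured or processed together, and the arrays were fitted as unpaired. Alternatives were other filters, normalizations, an added constant, probe set averaging, a replicate block, other moderation, the compared groups alone, a 2-fold minimum and leaving out each array.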

Additional observations from a re-analysis of the deposited data

Results flagged for a closer look

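The response to withdrawal differed between HCT116 Mut and HCT116 WT cells in 1488 genes by the test of the difference itself, 744 higher and 744 lower in Mut cells. Among the genes whose difference from WT is given above as a value, the log2 difference of the responses was positive for SNAI2 (4.80), LIPG (3.65), LINC00707 (3.34), ZNF530 (3.31), AADAC (3.11), ZNF804A (2.98), CCN1 (2.84), PRKG1-AS1 (2.79), JUN (2.63), AEN (1.81), INSIG1 (1.70), PHLDA3 (1.49), DDB2 (1.36), PC (1.31), NDC80 (1.27), MKI67 (1.20), CDK1 (1.17), KIF2C (1.13), MCM10 (1.05) and PPP1R15A (0.84). It was negative for WNT16 (-2.53), OLFM2 (-2.45), CHAC1 (-2.21), YPEL3 (-2.21), FAM89B (-2.14), DRD1 (-2.12), BMP4 (-2.10), SLC1A1 (-2.09), PCK2 (-1.84), DDIT4 (-1.75), EIF4EBP1 (-1.69), PHGDH (-1.62), PSAT1 (-1.44), GSR (-1.36), CCNE1 (-1.31), TKT (-1.25), ASNS (-1.20) and PGD (-0.78). KLF6, FOSL1, FOSL2 and MYC, named above without the value of their difference, were also called higher in Mut cells.

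Between HCT116 Mut and DLD1 Mut cells it differed in 1919 genes, 948 higher and 971 lower in HCT116. Among the genes whose difference from DLD1 Mut is given above as a value, it was positive for SLAMF6 (4.29), SNAI2 (4.23), GEM (4.09), RASSF10 (3.61), H1-5 (3.46), SLFN5 (3.27), IL33 (3.16) and TFPI (3.14). SLAMF6 and RASSF10 lay between 1.88 and 2.73 on the HCT116 Mut arrays and entered the test through their level in DLD1, so their values restate the change in DLD1 Mut cells. H1-5, IL33, SLC16A4, CMKLR2 and CYP1A1 were not called in HCT116 Mut cells. The first 4 of these lay between 2.91 and 8.56 on the HCT116 Mut arrays, so their values mostly restate the change in DLD1 Mut cells. The difference was negative for WNT16 (-3.83), MNS1 (-3.31), SLC16A4 (-3.26), GPRC5B (-3.10), CYP1A1 (-3.09), CMKLR2 (-3.04), RN5S156 (-3.04), TUBB4A (-2.90), NIBAN1 (-2.54) and ASNS (-1.87). MNS1, GPRC5B, RN5S156 and TUBB4A lay at 6.14 or lower on the DLD1 Mut arrays, so their values mostly restate the fall in HCT116 Mut cells.

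Probe sets without a single gene symbol entered no comparison above. When they were tested the same way, 1070 of 13229 were called in HCT116 Mut cells (8.09%), 508 higher and 562 lower without glutamine.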

How the results depend on the processing

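In HCT116 Mut cells the 5159 calls became 2883 with the compared groups fitted alone (1457 higher, 1426 lower) and 1226 with a 2-fold minimum (642 and 584). For the difference from WT cells the 1488 calls became 2319 on log2(value + 16) (1180 higher, 1139 lower), 430 fitted alone (234 and 196) and 517 with a 2-fold minimum (291 and 226). For the difference from DLD1 Mut cells the 1919 calls became 981 fitted alone (522 and 459) and 703 with a 2-fold minimum (423 and 280). Fitting groups alone leaves fewer arrays for the spread, and the cause of the other shifts was not tested. The gene list counts given further below leave out counts of 3 or fewer, some of which also shrank when fitted alone. For the change in Mut cells the 3 rises in cholesterol synthesis became 1. The 3 falls in hypoxia-inducible genes became 1, the 3 in Wnt targets 1 and the 2 in lysosome and autophagy 1. For the difference from WT the 3 higher in NF-kB and chemokines became 1 and the 3 in the TCA cycle 1. The 3 lower in FOXO targets and growth factor receptors became 0. Fitted alone, calls were lost for the change in Mut cells of ACTA2, ALDH18A1, BCL2L11, CCNG1, CDKN1B, CHAC1, CLDN3, CRB3, CTH, DDIT4, ESRP1, ETV4, GRHL2, KRT20, MKI67, NDUFS3, NFKBIA, NOTUM, OAS3, PLK1, RICTOR, RNF43, RRP12, SARS1, SLC1A4, SLC1A5, SLC3A2, SLC7A1, SLC7A11, SUCLG1, VEGFA, WEE1 and ZEB1 and for the difference from WT of CDK1, OLFM2, PGD, PPP1R15A and PRKG1-AS1. Counts of calls in gene lists that fell by over 1.5 times when fitted alone and are not given above were, for the change in Mut cells, 7 of 12 lower in amino acid response, 7 of 11 lower in aminoacyl-tRNA synthetases, 2 of 4 lower in BCL2 family, 1 of 4 lower in endoplasmic reticulum chaperones, 4 of 8 higher in epithelial-mesenchymal genes, 2 of 4 higher in hypoxia-inducible genes, 2 of 4 higher in NRF2 targets, 5 of 9 lower in NRF2 targets, 13 of 21 lower in nucleotide synthesis, 3 of 9 lower in respiratory complex I and 8 of 13 lower in ribosome biogenesis, for the difference from WT 3 of 5 higher in AP-1 and immediate early genes, 3 of 5 higher in cholesterol synthesis, 5 of 8 higher in ERK feedback and ETS factors, 2 of 5 lower in glutamine and glutamate metabolism, 4 of 7 lower in NRF2 targets, 1 of 5 higher in nucleotide synthesis, 1 of 4 lower in pentose phosphate and NADPH and 3 of 5 lower in serine and one-carbon metabolism, and for that from DLD1 Mut 6 of 11 lower in aminoacyl-tRNA synthetases, 3 of 6 higher in cholesterol synthesis, 3 of 5 higher in epithelial-mesenchymal genes, 3 of 6 lower in glutamine and glutamate metabolism and 3 of 5 lower in serine and one-carbon metabolism. Leaving out 1 array gave 3967 to 4169 calls in Mut cells (1968 to 2182 higher, 1960 to 2198 lower), 842 to 1088 for the difference from WT (463 to 640 higher, 379 to 532 lower) and 1169 to 1417 for that from DLD1 Mut (578 to 739 higher, 591 to 755 lower). A replicate block over all arrays gave 5075, 1312 and 1774 calls, and a replicate block within each line 4982, 1136 and 1614. In genes that were not called, the sign of the change turned for KRT19 (0.0109 with quantile normalization), NFE2L2 (-0.11 to 0.0887 over the fits that leave out 1 array), PYCR1 (-0.0425 to 0.19 over the fits that leave out 1 array), SLAMF6 (-0.18 to 0.0982 over the fits that leave out 1 array), YAP1 (-0.0057 with quantile normalization, -0.00625 with arrays shifted to the same median, -0.0893 to 0.12 over the fits that leave out 1 array), and the cause was not tested. Signal near the array median limits dim genes.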

Other observations

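Among hypoxia-inducible genes 4 of 12 rose and 3 fell, beside 16.4% higher and 16.5% lower over all tested genes. BHLHE41 (log2 change 3.34), BHLHE40 (1.11) and VEGFA (0.41), the angiogenic growth factor, rose, while P4HA1 (-0.75), a collagen prolyl hydroxylase, fell. The 4 became 2 without HCT116 Mut +Gln replicate 2, and the 3 became 1 without Mut -Gln replicate 1 or Mut +Gln replicate 1. In the BCL2 family, which governs mitochondrial apoptosis, 3 of 10 rose and 4 fell. MCL1, an antiapoptotic member, was at 791 and 806 without glutamine, against 452 and 377 with it (0.95). The proapoptotic members BAD (-0.75), BID (-0.67) and BCL2L11 (-0.57) fell. The proapoptotic family members BBC3 and PMAIP1, counted with the p53 targets above, rose. The 4 became 2 without Mut -Gln replicate 2 or Mut +Gln replicate 2. For VEGFA the change was not called without HCT116 Mut -Gln replicate 2 or HCT116 Mut +Gln replicate 2 (adjusted p up to 0.115). For BCL2L11 the change was not called without HCT116 Mut -Gln replicate 2 or HCT116 Mut +Gln replicate 1 or 2 (adjusted p up to 0.161).

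Wnt target genes had 3 of 14 lower and 1, MYC, higher. AXIN2, a feedback inhibitor of the Wnt pathway, was at 34.5 and 34.1 without and 125 and 106 with glutamine (-1.75 ± 0.21, limma adjusted p = 0.000127). NOTUM (-0.67) and RNF43 (-0.49), which also restrain Wnt signalling, fell, and the 3 became 1 without Mut -Gln replicate 1 or 2 or Mut +Gln replicate 1. In DLD1 Mut cells 11 of the 14 fell and 1 rose. The next lists had shares of calls near or below those of all tested genes. Among FOXO targets and growth factor receptors 3 of 15 rose and 2 fell, with IRS2 (1.25), an adaptor of insulin signalling, KLF6 (2.20) and RICTOR (0.50) higher and IGF1R (-0.57) and ERBB3 (-0.63) lower. Interferon-stimulated genes had 2 of 13 lower, IFI6 (-1.78) and OAS3 (-0.71), and 1 higher, IRF7 (1.00). Of 10 keratins KRT80 (3.57) and KRT15 (1.52) rose, and KRT23 (-1.40) and KRT20 (-0.75) fell. KRT20, a marker of differentiated colon epithelium, was the 1 called gene of 11 colon epithelial markers. For NOTUM the change was not called without HCT116 Mut -Gln replicate 1 or 2 or HCT116 Mut +Gln replicate 1 or 2 (adjusted p up to 0.246). For RNF43 the change was not called without HCT116 Mut -Gln replicate 1 or 2 or HCT116 Mut +Gln replicate 1 (adjusted p up to 0.0754). For OAS3 the change was not called without HCT116 Mut -Gln replicate 1 or HCT116 Mut +Gln replicate 1 (adjusted p up to 0.0789). For KRT20 the change was not called without HCT116 Mut -Gln replicate 1 or HCT116 Mut +Gln replicate 1 (adjusted p up to 0.187).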
